A study of Mus musculus with 10 samples.

Results

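The genes of oxidative phosphorylation were taken as all genes of the deposited table that carry the KEGG term of that name and have a mean of at least 0.5 FPKM (fragments scaled to transcript length and to library size) over the 10 libraries. Of 132 genes with the term, 119 reached that level, 106 encoded in the nucleus and 13 in mitochondrial DNA, among 55401 genes in the table and 12731 tested. The study sequenced RNA from mouse liver: 5 libraries labelled NIKflox and 5 labelled NIKhKO. For 4 weeks all of the mice, controls included, drank a Lieber-DeCarli diet that held 5% ethanol, so no value here compares ethanol with its absence. Map3k14 encodes NIK, the NF-kB inducing kinase, and the series title speaks of the hepatic enzyme. What hKO stands for is not spelled out, and the sources used here name neither the Cre driver, the part of the gene removed, nor the age and sex of the mice. Nothing in the labels ties libraries to separate litters or cages, and the p-values therefore cover the spread between these samples alone.

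Oxidative phosphorylation makes most of the ATP of the cell in the inner mitochondrial membrane. Complexes I and II pass electrons to coenzyme Q, complex III passes them to cytochrome c, complex IV to oxygen, and complex V, the ATP synthase, uses the proton gradient that results. Mitochondrial DNA is transcribed as long RNAs that are cut into single messages, and encodes core subunits of complexes I, III, IV and V, while all subunits of complex II and most of the others are nuclear. The hepatocyte is rich in mitochondria and reoxidises through this chain the NADH that ethanol breakdown yields, and long ethanol intake is known to impair mitochondrial protein synthesis in liver. The KEGG list also holds the vacuolar proton pump (V-ATPase) of lysosomes, which is no part of the respiratory chain, and 3 phosphatases grouped with inorganic pyrophosphatase.

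Promoters of nuclear respiratory genes often carry sites for NRF1, for the ETS factor GABPA and for YY1. RefSeq promoters of the mouse assembly GRCm38.p6, taken from 250 bases before to 50 bases after the start, were found for 84 of the 106 nuclear genes. The sequences shown belong to members with the smallest p of their complex, with the motif letters in capitals, and give a view of what these promoters share. The Ndufs5 promoter is given over 150 bases that end at the start (chr4:123718187-123718336, minus strand), and the others as 30 bases around a match.
Ndufs5, NRF1: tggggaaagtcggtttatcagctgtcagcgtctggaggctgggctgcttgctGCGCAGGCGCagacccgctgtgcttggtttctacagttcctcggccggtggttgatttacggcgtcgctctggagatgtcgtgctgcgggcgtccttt
Uqcrc1, NRF1, chr9:108936643-108936672, plus strand: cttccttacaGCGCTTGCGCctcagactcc
Uqcrc1, NRF1, chr9:108936668-108936697, plus strand: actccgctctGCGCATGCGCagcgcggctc
Atp5g3, NRF1, chr2:73911295-73911324, minus strand: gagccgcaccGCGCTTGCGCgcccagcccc
Sdhb, ETS, chr4:140961266-140961295, plus strand: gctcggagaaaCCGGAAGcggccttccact
Cox8a, ETS, chr19:7217603-7217632, minus strand: tttccgaaataCTTCCGGctcgggcgtccg
The NRF1 motif was searched as GCGCA and GCGC with any 1 base between them, the ETS motif as CCGGAAG and the YY1 motif as AAGATGGC, each on both strands and separately, so that matches may overlap. The NRF1 motif stood in 20 of the 84 genes (23.8%), against 11.8% of 8816 tested genes with a promoter. Among all 27025 genes with promoters of the same length it stood in 5.19%. The ETS motif stood in 22 of 84 (26.2%), against 20.6% of the tested genes and 9.93% of all genes with a promoter. The YY1 motif stood in 12 of 84 (14.3%), against 5.50% of the tested genes and 3.19% of all genes with a promoter. These matches describe letters in a window and were not tested as binding sites.

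The libraries held 47161869 to 65052525 estimated counts. Map3k14 was listed at a mean of 0.606 FPKM (SD 0.168) over the 5 NIKflox libraries and of 0.383 FPKM (SD 0.0372) over the 5 NIKhKO libraries, with no overlap between the groups. Its log2 fold change of -0.59 (NIKhKO minus NIKflox, SE 0.19) had an adjusted p of 0.33 (edgeR's quasi-likelihood test, Benjamini-Hochberg over all genes tested). The sum of 8 hepatocyte markers ranged from 42353 to 56621 FPKM in NIKflox and from 44878 to 52493 in NIKhKO. Muscle transcripts stood out in NIKflox 2 and 4 and adipocyte transcripts in NIKflox 2, and their values are given beside the isoforms they touch. The sum of 8 B and plasma cell markers was 4.24 to 7.60 FPKM in NIKflox and 6.82 to 16.4 in NIKhKO. Among these 8, Jchain lay the other way, at 0.274 to 0.769 FPKM in NIKflox and 0.116 to 0.334 in NIKhKO. The sum of 7 cholangiocyte markers was 26.1 to 46.2 FPKM in NIKflox and 15.8 to 26.9 in NIKhKO. Most of that sum was Spp1 alone, at 23.5 to 42.7 FPKM in NIKflox and 14.1 to 23.5 in NIKhKO. The part of these cell types in the values that follow was not tested. In bulk tissue, fewer cells of a type and less RNA per cell cannot be told apart.

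In edgeR, 0 of the 119 genes had an adjusted p below 0.05, the threshold for calling a gene, and 3 of all 12731 genes (0.0236%) were called. Limma and DESeq2 also called 0 of the 119, beside 0 and 207 of all genes (1.63% for DESeq2). At an unadjusted p below 0.05 stood 13 of the 119 genes, 12 higher and 1 lower in NIKhKO, against 4.85% higher and 5.14% lower among all genes tested. The 13 are Ndufs5, Ndufc2, Ndufb3, Ndufb10, Ndufa11, Ndufa8, mt-Nd6, Sdhb, Uqcrc1, mt-Co1, Atp5g3, Lhpp and Atp6v0d2, and Ndufa8 is the lower one. Their number was 6 without NIKflox 2 and 4 (8.23% of all genes) and 8 with limma (10.9%).

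Most log2 fold changes were small and above 0. They were above 0 in 101 of the 119 genes, against 48.2% of all genes tested, and in 88 of the 106 nuclear genes. With scaling by total counts alone 84 of 119 were above 0, against 34.7% of all genes. The median log2 fold change was 0.11 over the nuclear genes and -0.01 over all genes tested. The nuclear median was 0.04 with limma and 0.04 with total counts, where the median of all genes was -0.05 and -0.08. The median coefficient of variation over the 119 was 12.2% in NIKflox and 14.3% in NIKhKO, against 18.2% and 17.4% over all genes tested. The 119 were also more abundant, with a median level of 60.6 FPKM against 3.25, and the comparison was not matched for level. Over the 13 mitochondrial genes the median coefficients were 19.5% and 21.1%. The median standard error of a log2 fold change was 0.11 over the 119, 0.19 over the 13 mitochondrial genes and 0.16 over all genes.

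**Figure D1:**
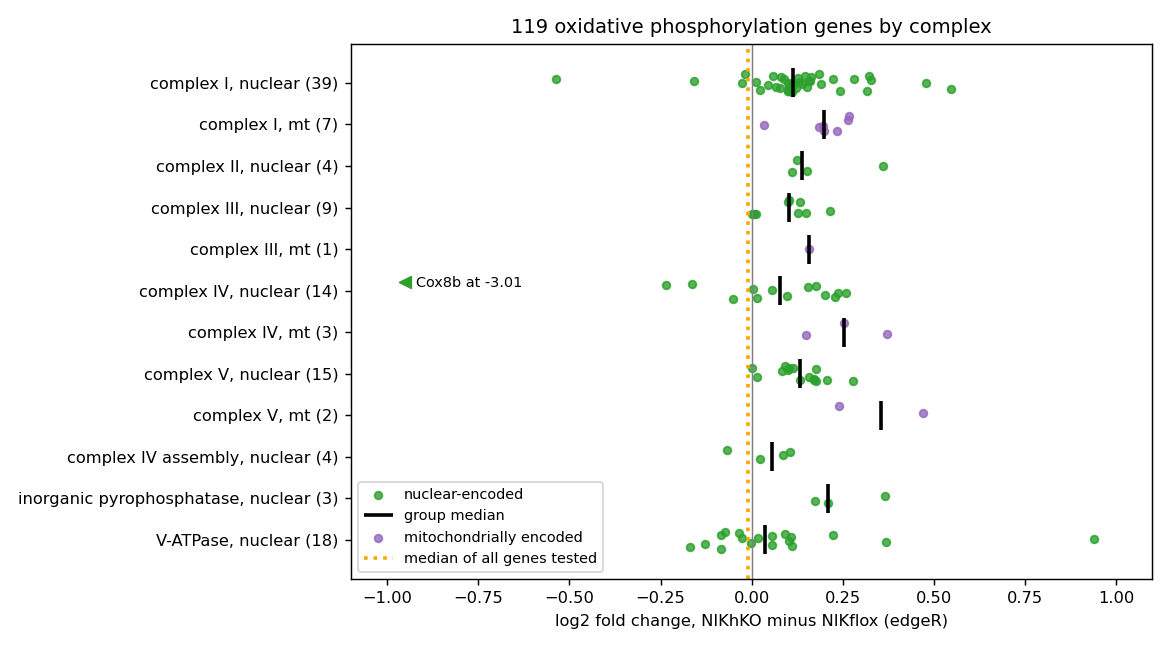
Log2 fold change (NIKhKO minus NIKflox, edgeR) of each of the 119 genes on the x axis, by complex and by the genome that encodes it on the y axis, with the number of genes in brackets. Black bars are group medians and the dotted line is the median of all genes tested. Most points lie between 0 and 0.4, none passed the adjusted test, and Cox8b at -3.01 is drawn as an arrow at the left edge.

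Complex I, the NADH dehydrogenase, had 39 nuclear members, whose log2 fold changes had a median of 0.11 and were above 0 in 35. Their mean levels ran from 1.86 FPKM for Ndufa4l2 to 161 for Ndufb9. Ndufs5, an accessory subunit, had the smallest p of all 119 genes. It stood at 42.4, 41.2, 48.0, 42.4 and 40.8 FPKM in NIKflox 1 to 5 and at 76.1, 57.0, 55.1, 57.4 and 41.3 in NIKhKO 1 to 5. The first 4 NIKhKO libraries lay above every NIKflox library and NIKhKO 5 lay within their range. The log2 fold change was 0.48 (SE 0.13, edgeR adjusted p = 0.26). Its coding sequence is nearly identical to a pseudogene that has counts listed, as described further on. With the pseudogene's counts added the log2 fold change of Ndufs5 was 0.13 (SE 0.11, edgeR adjusted p = 0.77).

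Ndufc2 and Ndufb3, accessory subunits of the membrane arm, came next in complex I. Ndufc2 stood at 64.1, 70.6, 73.9, 76.9 and 74.4 FPKM in NIKflox and at 92.1, 87.2, 67.1, 81.3 and 80.4 in NIKhKO (log2 fold change 0.24, SE 0.08, edgeR adjusted p = 0.35). All NIKhKO libraries but NIKhKO 3 lay above the NIKflox range. Ndufb3 stood at 60.6, 57.5, 77.6, 70.3 and 60.1 FPKM in NIKflox and at 94.7, 89.1, 65.9, 65.7 and 75.3 in NIKhKO (log2 fold change 0.32, SE 0.11, edgeR adjusted p = 0.36). Only NIKhKO 1 and 2 exceeded the highest NIKflox library.

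Ndufa8, an accessory subunit in the intermembrane space, was the one member of the 119 whose FPKM ranges did not overlap, where 2.20% of all genes did not (0.605% higher and 1.59% lower in NIKhKO). It stood at 101, 99.9, 113, 117 and 105 FPKM in NIKflox and at 98.8, 99.6, 81.7, 94.8 and 85.3 in NIKhKO. The gap between NIKflox 2 and NIKhKO 2 was under 1 FPKM, and the log2 fold change was -0.16 (SE 0.07, edgeR adjusted p = 0.50). Among nuclear core subunits, which hold the flavin and the iron-sulfur clusters between them, there were log2 fold changes of 0.16 (Ndufs1), 0.19 (Ndufs3), 0.05 (Ndufs7), 0.16 (Ndufs8), 0.11 (Ndufv1) and 0.16 (Ndufv2). None of these 6 had an unadjusted p below 0.05.

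Complex II, succinate dehydrogenase, feeds electrons from the citric acid cycle into the chain and is wholly nuclear. All 4 subunits had log2 fold changes above 0, with a median of 0.14. Sdhb, the iron-sulfur subunit (chr4:140961203-140979193, plus strand, coordinates as deposited and read as GRCm38), stood at 76.0, 63.3, 102, 69.5 and 79.0 FPKM in NIKflox and at 93.5, 92.3, 97.3, 96.8 and 98.4 in NIKhKO. NIKflox 3 was the highest of the 10 libraries and the other NIKflox libraries lay below all of NIKhKO. The SD was 14.9 in NIKflox and 2.63 in NIKhKO, and the log2 fold change was 0.36 (SE 0.12, edgeR adjusted p = 0.35). Sdhc, a membrane anchor, had a log2 fold change of 0.15 (SE 0.07, adjusted p = 0.52), and Sdha, the flavoprotein, one of 0.12 (SE 0.10, adjusted p = 0.77).

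Complex III passes electrons from reduced coenzyme Q to cytochrome c. Of its 9 nuclear members 8 had log2 fold changes above 0, with a median of 0.10. Uqcrc1, a core protein of the matrix side, stood at 50.3, 48.9, 68.4, 60.7 and 58.9 FPKM in NIKflox and at 70.1, 60.6, 64.0, 59.5 and 63.9 in NIKhKO (log2 fold change 0.22, SE 0.10, edgeR adjusted p = 0.49). The groups overlapped, with NIKflox 1 and 2 the lowest of the 10 libraries. Its partner Uqcrc2 had a log2 fold change of 0.15 and the Rieske iron-sulfur protein Uqcrfs1 one of 0.13, with edgeR adjusted p of 0.57 and 0.69.

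Complex V joins a catalytic head to a rotating ring in the membrane. All 15 nuclear members had log2 fold changes of 0 or above, with a median of 0.13 and a highest value of 0.28. That highest value was Atp5g3, 1 of 3 genes for the ring's subunit c, which stood at 173, 172, 199, 160 and 158 FPKM in NIKflox and at 209, 195, 177, 207 and 214 in NIKhKO (SE 0.09, edgeR adjusted p = 0.35). NIKflox 3 lay within the NIKhKO range and NIKhKO 2 and 3 within the NIKflox range. The other subunit c genes encode the same mature protein. Atp5g1 had a log2 fold change of 0.17 and Atp5g2 one of 0.00, whose sign depended on the scaling. Atp5a1, the catalytic head's alpha subunit, had a log2 fold change of 0.21 (SE 0.11, edgeR adjusted p = 0.56) and Atp5d, its delta subunit, one of 0.18 (SE 0.09, adjusted p = 0.58).

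Complex IV, cytochrome c oxidase, had 14 nuclear members, 10 with log2 fold changes above 0, and a median of 0.08. Several of its subunits exist as pairs, a form found in most tissues and a form of heart and skeletal muscle. The liver form dominated here. Cox6a1 had the highest mean level of all nuclear members, 349 FPKM, followed by Cox8a at 288. Cox8a stood at 260, 254, 306, 304 and 258 FPKM in NIKflox and at 329, 314, 261, 272 and 320 in NIKhKO (log2 fold change 0.18, SE 0.08, edgeR adjusted p = 0.52). NIKhKO 1, 2 and 5 lay above the NIKflox range. Cox7c had a log2 fold change of 0.24 (SE 0.12, adjusted p = 0.55), Cox4i1 one of 0.26 (SE 0.25, adjusted p = 0.80), Cox6a1 one of 0.16 (adjusted p = 0.61) and Cox6b1 one of 0.10 (adjusted p = 0.86). Cox7a2l, which takes part in the assembly of supercomplexes, had one of -0.24 (SE 0.16, adjusted p = 0.70), and Cox7a2 one of 0.00, whose sign depended on the scaling.

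Of the muscle forms, Cox8b and Cox6a2 were near the 0.5 FPKM level. Cox8b, a form of muscle and brown fat, stood at 0.203, 3.05, 0, 1.86 and 0 FPKM in NIKflox and was listed at 0 in NIKhKO 1 to 4 and at 0.570 in NIKhKO 5. Only NIKflox 2 and 4 lay above 1 FPKM. The fitted log2 fold change of -3.01 (SE 1.51, edgeR adjusted p = 0.55) rests on listed zeros and is no bound. Without NIKflox 2 and 4 it was 0.84. Cox6a2, the muscle form of subunit 6a, stayed below the level at a mean of 0.348 FPKM and stood at 1.14 and 1.93 in NIKflox 2 and 4, with no other library above 0.320.

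The 14 muscle markers are of heart and striated muscle, except Myh11 of smooth muscle. Myh11 stood at 2.49 and 0.419 FPKM in NIKflox 2 and 4. The sum of all 14 was 15.1 and 44.5 FPKM in NIKflox 2 and 4, 1.09 to 1.502 in the other NIKflox libraries, and 0.803 to 1.99 in NIKhKO. Of these markers 5 had a mean of at least 0.5 FPKM, and cardiac actin, Actc1, stood at 2.90 and 10.4 in NIKflox 2 and 4 and was listed at 0 in the other 8 libraries. The sum of 8 adipocyte markers was 31.1 in NIKflox 2 and 3.17 to 5.83 in the other 9. Its brown fat gene Ucp1 stood at 1.69 in NIKflox 2, at 1.32 in NIKhKO 5, at 0.221 and 0.278 in NIKflox 1 and 4, and at 0 elsewhere. Ucp1 was thus above 0 in the same 4 libraries as Cox8b. The part of muscle or fat tissue in these isoform values was not tested.

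The other tissue-type isoforms were not highest in NIKflox 2 and 4 together. Cox7a1, a muscle form, stood at 2.86, 3.804, 2.37, 5.50 and 2.77 FPKM in NIKflox and at 2.56, 6.14, 1.43, 3.30 and 3.84 in NIKhKO, so that NIKhKO 2, with a muscle marker sum of 1.26, was the highest library. Its log2 fold change of 0.06 (SE 0.35) changed sign with the scaling. Cox6b2, a testis-type subunit, stood at 0.654, 1.67, 0.489, 0.206 and 0.357 in NIKflox and at 0.355 to 0.676 in NIKhKO (log2 fold change -0.16, SE 0.50). Without NIKflox 2, its highest library, that value was 0.48. Ndufa4, grouped here by its symbol with complex I and now assigned to complex IV, had a log2 fold change of -0.03, whose sign depended on single libraries. Its relative Ndufa4l2, known as a hypoxia-induced gene, had one of 0.55 (SE 0.28, edgeR adjusted p = 0.56).

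**Figure D2:**
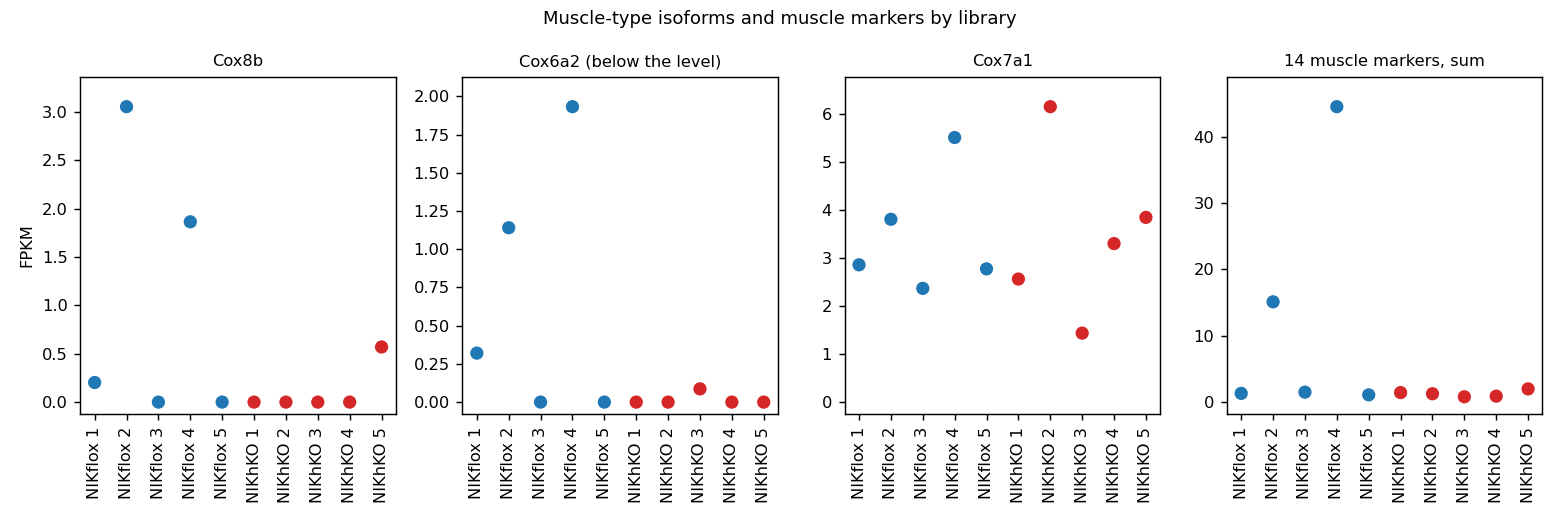
FPKM in each library (x axis) of Cox8b, Cox6a2, Cox7a1 and the sum of 14 muscle markers, with NIKflox in blue and NIKhKO in red. NIKflox 2 and 4 stand highest for Cox8b, Cox6a2 and the marker sum, at 15.1 and 44.5 FPKM for the latter, while Cox7a1 is highest in NIKhKO 2.

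The 13 mitochondrially encoded genes were far more abundant than the nuclear ones per length. Their mean levels ran from 1709 FPKM for mt-Nd5 to 16512 for mt-Co1, the catalytic subunit of complex IV, against 0.569 to 349 for nuclear members. They took 10.2, 10.8, 8.94, 7.004 and 8.63% of all counts in NIKflox and 8.62, 8.40, 11.8, 12.3 and 11.3% in NIKhKO, or 9.12% ± 1.48 and 10.5% ± 1.83 (SD, n = 5 each). NIKhKO 3, 4 and 5 were the highest libraries and NIKflox 4 the lowest, but NIKflox 1 and 2 lay above NIKhKO 1 and 2.

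The median log2 fold change of these 13 was 0.23, and all 13 were above 0. With limma and with total counts 12 of 13 were, the exception being mt-Nd3. All of these messages but mt-Nd6, which lies on the other strand, share their transcripts, so the 13 are not independent. The median was 0.13 without NIKflox 4, 0.12 without NIKhKO 3 and 0.13 without NIKhKO 4.

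mt-Co1 stood at 14884, 15709, 15474, 12928 and 14864 FPKM in NIKflox and at 15890, 14884, 21666, 20135 and 18681 in NIKhKO. NIKhKO 1, 3, 4 and 5 lay above every NIKflox library, NIKhKO 1 by the least, and NIKhKO 2 lay inside the NIKflox range. Its log2 fold change was 0.37 (SE 0.15, 95% interval 0.05 to 0.69, edgeR adjusted p = 0.43). mt-Nd6, the only protein-coding gene on the other strand of mitochondrial DNA, stood at 2666, 2384, 2340, 2377 and 2479 FPKM in NIKflox and at 2953, 2370, 2499, 3393 and 2895 in NIKhKO (log2 fold change 0.27, SE 0.12, edgeR adjusted p = 0.48). NIKhKO 1, 4 and 5 lay above the NIKflox range. The sources used here give no strand setting for the counting, so reads of mt-Nd6 and of RNA from the opposite strand cannot be told apart.

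The remaining complex I subunits had log2 fold changes of 0.20 (mt-Nd1), 0.20 (mt-Nd2), 0.03 (mt-Nd3), 0.23 (mt-Nd4), 0.26 (mt-Nd4l) and 0.19 (mt-Nd5), with edgeR adjusted p from 0.78 to 0.98. mt-Cytb, the complex III subunit that carries the quinone sites, had a log2 fold change of 0.16, mt-Co2 and mt-Co3 of complex IV 0.25 and 0.15, and mt-Atp8 of complex V 0.24.

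**Figure D3:**
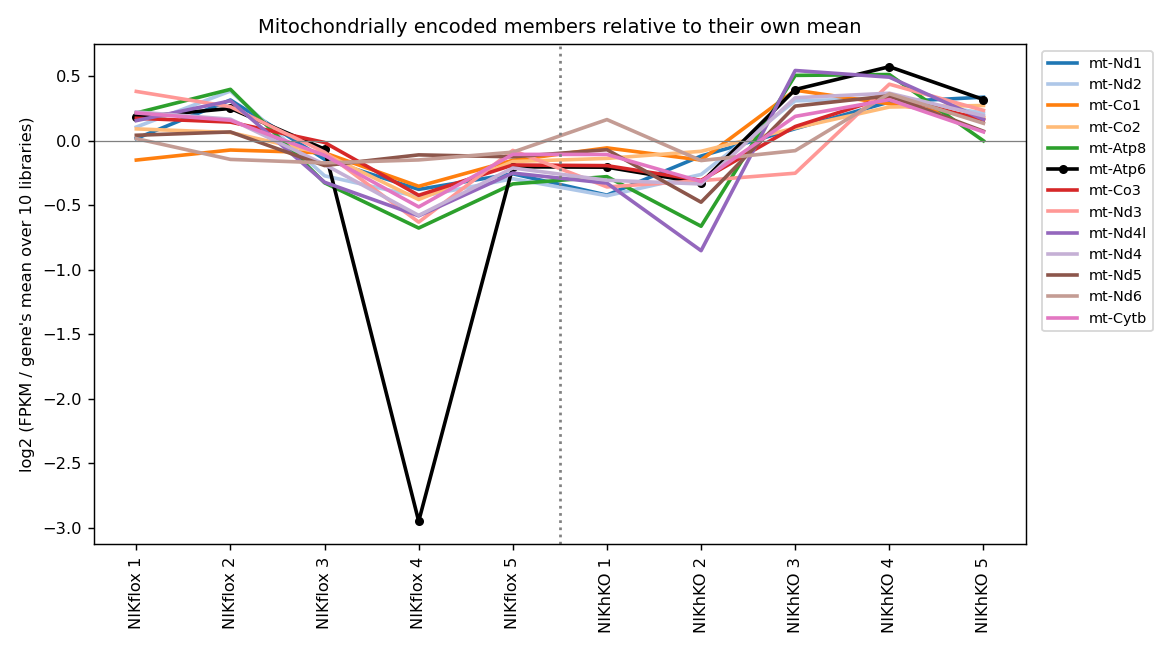
Each of the 13 mitochondrially encoded genes in each library (x axis), as log2 of its FPKM over its own mean across the 10 libraries; lines join the values of 1 gene and imply no order. Most of the genes move together within about 1 log2 unit, except mt-Atp6 (black) in NIKflox 4, where it stood at 1233 FPKM. In NIKflox 2 and NIKhKO 1, mt-Nd6 lay on the other side of its mean from most of the others. It stood there at 2384 and 2953 FPKM, beside its mean of 2636.

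mt-Atp6, subunit a of complex V (chrMT:7927-8607), stood apart in one library. It stood at 10822, 11331, 9104, 1233 and 8281 FPKM in NIKflox and at 8263, 7598, 12543, 14179 and 11888 in NIKhKO. The next lowest library after NIKflox 4 was NIKhKO 2 at 7598 FPKM, and the log2 fold change of 0.47 carried an SE of 0.46 (edgeR adjusted p = 0.80). A copy of this gene lies in nuclear DNA on chromosome 1, annotated as the pseudogene Gm10925 (chr1:24613974-24614651, minus strand). Over all 678 aligned bases it was identical to mt-Atp6, so reads from either cannot be assigned by sequence. The first 120 bases show it:
mt-Atp6: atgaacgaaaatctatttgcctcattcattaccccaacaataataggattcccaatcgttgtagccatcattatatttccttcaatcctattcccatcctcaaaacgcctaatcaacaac
Gm10925: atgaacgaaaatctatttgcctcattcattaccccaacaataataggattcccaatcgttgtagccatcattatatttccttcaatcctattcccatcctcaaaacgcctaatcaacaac
In CPM, a gene's counts scaled to the total count of its library, the entry mt-Atp6 held 5721 to 10484 in the 9 libraries other than NIKflox 4, and the entry Gm10925 held 5335 to 9094. In NIKflox 4 they held 931 and 4757, which sum to 5688, where the sums in the other 9 libraries ran from 11485 to 18803. With the copy added, the log2 fold change was 0.33 (SE 0.29).

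In all, 7 of the 13 mitochondrial genes (mt-Co1, mt-Co2, mt-Atp6, mt-Co3, mt-Nd3, mt-Nd4l and mt-Nd4) had such a chromosome 1 copy, each listed at a mean of 2428 to 9741 FPKM. Those copies together took 2.13 to 3.50% of all counts, so the share of mitochondrial transcripts given above is lower than one that counts both. Adding the copies left the log2 fold change of mt-Co1 at 0.37 and moved mt-Nd3 to -0.01. The other 6 mitochondrial genes had no copy at 0.5 FPKM or more that met the rule for copies.

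Of the 106 nuclear genes 15 had a copy outside the KEGG list that was listed at a mean of 0.5 FPKM or more. A copy was defined as a gene with at least 50% of its 50-base words in the member's transcripts. For Ndufs5 the copy is Ndufs5-ps on chromosome 16 (chr16:42955631-42955949, plus strand), which matched its coding sequence at 316 of 318 bases. The first 120 bases hold both differences, in capitals:
Ndufs5: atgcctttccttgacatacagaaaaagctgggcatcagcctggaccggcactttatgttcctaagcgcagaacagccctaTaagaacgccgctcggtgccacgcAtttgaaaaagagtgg
Ndufs5-ps: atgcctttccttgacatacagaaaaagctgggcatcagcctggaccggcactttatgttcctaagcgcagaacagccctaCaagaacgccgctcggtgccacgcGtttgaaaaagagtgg
Ndufs5-ps held 14.8, 16.7, 22.7, 23.8 and 26.2 CPM in NIKflox and 0.9, 29.99, 0.8, 1.1 and 19.7 in NIKhKO. It was near 0 in NIKhKO 1, 3 and 4, above the NIKflox range in NIKhKO 2 and within it in NIKhKO 5. The sums of gene and pseudogene were 54.8, 55.3, 67.8, 64.2 and 64.6 in NIKflox and 72.4, 84.2, 52.2, 54.7 and 58.7 in NIKhKO. On that scale only NIKhKO 1 and 2 lay above the NIKflox range and NIKhKO 3 and 4 lay below it.

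How reads shared with a pseudogene were assigned was not tested, either for Ndufs5 or for the gene that follows. Ndufa12, an accessory subunit of complex I, was high in NIKhKO 4, where its pseudogene was low. It held 32.3 to 42.0 CPM in NIKflox and 49.2, 37.1, 32.5, 75.0 and 37.8 in NIKhKO, with NIKhKO 4 the highest. Its pseudogene Ndufa12-ps held 11.4 in NIKhKO 4 and 32.5 to 43.2 in the other 9 libraries. With the 2 added, NIKhKO 4 stood at 86.4 beside a NIKflox range of 66.7 to 85.2, and the log2 fold change went from 0.33 to 0.11 (SE 0.10, edgeR adjusted p = 0.78). Among the members themselves, Ndufb4c held all of its 341 words of 50 bases in common with Ndufb4, so the split of reads between this pair is uncertain. Ndufb4c stood at 31.8 FPKM in NIKflox 2 and at 7.50 to 12.7 in the other 9 libraries, and its log2 fold change of -0.54 (SE 0.36) was -0.006 without that library.

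**Figure D4:**
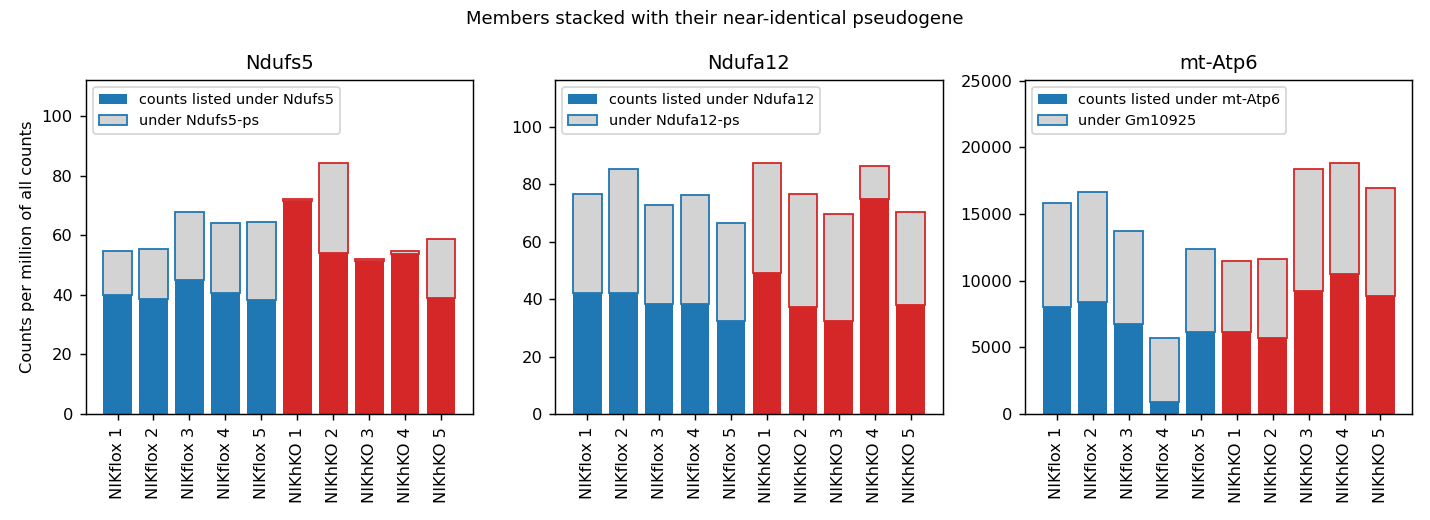
CPM (y axis) in each library (x axis), with the colored part listed under the gene (NIKflox blue, NIKhKO red) and the grey part under its near-identical pseudogene. Ndufs5-ps is near 0 in NIKhKO 1, 3 and 4, Ndufa12-ps is at 11.4 in NIKhKO 4, and mt-Atp6 is at 931 in NIKflox 4.

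From library to library, higher shares of nuclear subunits tended to go with lower shares of mitochondrial ones. The 81 nuclear genes of complexes I to V took 1.17, 1.13, 1.38, 1.37 and 1.26% of all counts in NIKflox and 1.51, 1.404, 1.18, 1.22 and 1.299% in NIKhKO, or 1.26% ± 0.112 and 1.32% ± 0.136 (SD, n = 5 each). NIKhKO 1 was the highest, and it held the highest value of 40 of the 106 nuclear genes. NIKflox 2 and NIKhKO 3, with mitochondrial shares of 10.8 and 11.8%, held the lowest value of 27 nuclear genes each. Of the 13 mitochondrial genes, 12 or 13 lay above their own median in NIKflox 1 and 2 and NIKhKO 3, 4 and 5, and at most 2 did in each of the other 5 libraries.

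Both shares are parts of one total, so a larger mitochondrial share by itself lowers every other share. The ratio of mitochondrial to nuclear counts was 8.77, 9.52, 6.48, 5.13 and 6.83 in NIKflox and 5.70, 5.98, 9.96, 10.1 and 8.67 in NIKhKO. The groups overlapped over most of their range. Genes of the type rRNA took 0.848, 0.390, 0.214, 0.288 and 0.257% of counts in NIKflox and 0.225, 0.322, 1.48, 1.19 and 1.896% in NIKhKO. The 5 libraries with the highest rRNA share were also the 5 with the highest mitochondrial share, in libraries made by oligo(dT) capture. The part of RNA quality or capture in the mitochondrial values was not tested.

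**Figure D5:**
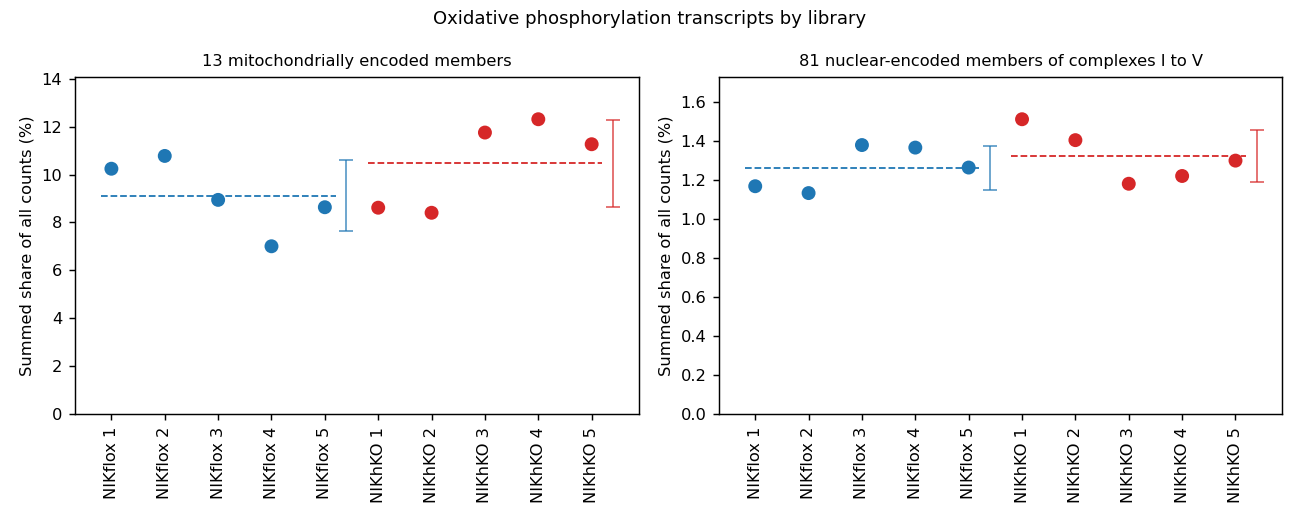
Share of all counts (%, y axis from 0) taken in each library by the 13 mitochondrially encoded genes (left) and by the 81 nuclear genes of complexes I to V (right), with dashed group means and SD bars at the right of each group (n = 5). NIKhKO 3, 4 and 5 are highest on the left, NIKhKO 1 and 2 are highest on the right, and the groups overlap in both.

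The other KEGG members gave the following. The V-ATPase, which acidifies lysosomes, had 18 members, 10 with log2 fold changes above 0, and a median of 0.04. Atp6v0d2, a subunit known from osteoclasts and macrophages, stood at 2.77, 2.35, 4.26, 1.23 and 3.46 FPKM in NIKflox and at 5.37, 3.09, 6.68, 3.83 and 6.79 in NIKhKO. NIKhKO 1, 3 and 5 lay above the NIKflox range. The log2 fold change was 0.94 (SE 0.33, edgeR adjusted p = 0.37). The sum of 8 Kupffer cell and macrophage markers was 99.1 to 175 FPKM in NIKflox and 108 to 171 in NIKhKO, and its part in this value was not tested. Atp6v0a1 stood at 7.61 FPKM in NIKhKO 4 and at 2.43 to 3.67 in the other 9 libraries. Its log2 fold change was 0.22 with that library and -0.20 without it.

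The 3 genes grouped with inorganic pyrophosphatase, which clears the pyrophosphate of biosynthesis, had log2 fold changes of 0.37 (Lhpp), 0.21 (Ppa1) and 0.18 (Ppa2). Lhpp, a histidine phosphatase, stood at 18.8, 23.1, 23.8, 23.0 and 29.7 FPKM in NIKflox and at 28.5, 27.7, 29.1, 27.5 and 33.1 in NIKhKO (SE 0.12, edgeR adjusted p = 0.33). NIKflox 5 lay within the NIKhKO range and the other NIKflox libraries lay below it. Of the 4 assembly genes of complex IV in the list, 3 had log2 fold changes above 0, and Cox15, a heme A synthase, had the smallest p at a log2 fold change of 0.11 (SE 0.09, edgeR adjusted p = 0.77).

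Genes that build or regulate the chain but do not carry the KEGG term included no gene called in edgeR. As above, the shares of all genes tested at an unadjusted p below 0.05 were 4.85% higher and 5.14% lower in NIKhKO. Of 42 assembly factors 30 had log2 fold changes above 0, with a median of 0.10 and 4 at an unadjusted p below 0.05, all of them higher. Ndufaf1, which helps to assemble complex I, had a mean of 12.1 FPKM over the 5 NIKflox libraries (SD 1.17) and of 13.9 over the 5 NIKhKO libraries (SD 1.054), and a log2 fold change of 0.26 (edgeR adjusted p = 0.37). Coa6, a copper-handling factor of complex IV, had one of 0.28 (adjusted p = 0.40). Of 29 genes that copy, transcribe or process mitochondrial nucleic acids 18 were above 0, with a median of 0.05 and 1 at an unadjusted p below 0.05. That one was Hsd17b10, a part of mitochondrial RNase P, at 0.30 (adjusted p = 0.49), while Mterf2, a relative of the termination factor, had 0.54 (adjusted p = 0.64).

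Of 14 nuclear regulators of respiratory genes 7 were above 0 and 7 below, with a median of 0.01 and 3 at an unadjusted p below 0.05, 1 higher and 2 lower. Ppard, a nuclear receptor that drives fatty acid oxidation, stood at 3.32, 1.44, 2.39, 1.85 and 1.18 FPKM in NIKflox and at 0.874, 0.594, 1.56, 1.02 and 0.584 in NIKhKO. The groups overlapped through NIKhKO 3, and the log2 fold change was -1.06 (SE 0.35, edgeR adjusted p = 0.34). Pprc1, a coactivator of the PGC-1 family, stood at 1.54, 1.31, 1.97, 1.89 and 2.50 FPKM in NIKflox and at 0.835, 1.24, 1.13, 1.14 and 1.55 in NIKhKO. Only NIKhKO 5 reached into the NIKflox range, and the log2 fold change was -0.57 (SE 0.20, edgeR adjusted p = 0.36). Ppargc1b, a coactivator of the same family, lay the other way, at 0.508, 0.278, 0.430, 0.590 and 0.377 FPKM in NIKflox and 0.638, 0.510, 1.03, 0.562 and 0.566 in NIKhKO. NIKhKO 1 and 3 lay above the NIKflox range, and the log2 fold change was 0.67 (SE 0.27, edgeR adjusted p = 0.44), or 0.43 without NIKhKO 3.

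Of 20 genes of the mobile electron carriers (coenzyme Q synthesis, cytochrome c and its heme lyase, and the flavoproteins and dehydrogenases that feed electrons to coenzyme Q from elsewhere) 11 were above 0, with a median of 0.09 and 1 at an unadjusted p below 0.05. Pdss1, which makes the side chain of coenzyme Q, had a log2 fold change of 0.49 (SE 0.20, edgeR adjusted p = 0.45) at means of 0.608 FPKM in NIKflox (SD 0.151, n = 5) and 0.821 in NIKhKO (SD 0.144, n = 5). Coq4 had one of 0.24 (SE 0.12, adjusted p = 0.57).

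The 13 genes with the KEGG term that did not reach the level include 8 listed at 0 in every library, among them Cox7b2 and Cox8c, known from testis, and the gastric and kidney-type pumps Atp4b, Atp12a and Atp6v1b1. The nearest below the level were Atp6v0e2 at a mean of 0.336 FPKM and Cox6a2 at 0.348. Just inside it were Cox8b at 0.569, Cox6b2 at 0.625 and Atp6v1g2 at 0.625.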

How the data were processed

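RNA captured with oligo(dT) from 10 mouse livers was sequenced, 5 per genotype, per the labels' protocols. Per the submitters' processing notes, StringTie 1.3.4d, HISAT2 2.0.4, cutadapt 1.9 and edgeR (no version) were used, with no roles given, and hg38 is named, although the identifiers are mouse Ensembl ones. Coordinates are given as deposited and read as GRCm38. FPKM, per the file headers, is the authors' own unit in the deposited table. A count of 0 is listed as 1e-04 FPKM, written as 0 here. The deposited estimated counts are whole numbers and not normalized, and low ones cluster at multiples of 4, so totals overstate depth. The sources used here do not say how reads shared by near-identical genes were assigned.

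edgeR 4.0.16 (R 4.3.3, quasi-likelihood, TMM, two-sided, Benjamini-Hochberg) was fitted over the 12731 genes with a mean of at least 0.5 FPKM and Map3k14, without covariates, and checked on simulated data. Alternatives were limma 3.58.1 on log2(FPKM + 1) and log2(FPKM + 0.1), DESeq2 1.42.0, other scalings and filters, and libraries left out. Adding copies to their member and dividing counts by 4 were chosen after seeing the data. Copies were found from 50-base words of GENCODE M21 transcripts.

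The members and lists were chosen with earlier results of these data known. Named were all mitochondrial members, the 3 nuclear members of each complex with the smallest p, 1 in each smaller group, tissue isoforms, and 2 of each related list. Ndufb10, Ndufa8, Ndufa11, Ndufa12, Atp6v0a1, Ndufb4c and Ppargc1b, and other genes given without a test of their own, were named after their values were seen.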

Additional observations from a re-analysis of the deposited data

Results flagged for a closer look

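In 19 cases among the genes named and the sums and shares printed, 1 of the 5 libraries of a genotype lay far from the other 4, by Dixon's ratio of the gap to the whole range at its 95% value of 0.71. Chance gives this in about 1 of 20 groups of 5, and the 19 cases were not compared with the number expected over all groups examined. Low single values were Coq4 at 1.62 FPKM in NIKflox 5 and Atp6v0a1 at 2.80 in NIKflox 2. High single values in NIKflox were Map3k14 at 0.899 FPKM in NIKflox 4, Ndufs5 at 48.0 in NIKflox 3 and Ndufb4c at 31.8 in NIKflox 2. High single values in NIKhKO were Atp5a1 at 342 FPKM and Coq4 at 2.67 in NIKhKO 1, Atp6v0a1 at 7.61 in NIKhKO 4, and Cox8b at 0.570, Lhpp at 33.1 and Ndufb10 at 154 in NIKhKO 5. Others were Ppargc1b at 1.03 FPKM in NIKhKO 3, Cox6a2 at 0.0865 in NIKhKO 3, Actc1 at 10.4 in NIKflox 4, and Ucp1 at 1.69 in NIKflox 2 and 1.32 in NIKhKO 5. The adipocyte marker sum of 31.1 FPKM in NIKflox 2, the Ndufa12-ps value of 11.4 CPM in NIKhKO 4 and the rRNA share of 0.848% in NIKflox 1 also stood apart. For Cox8b, Cox6a2 and Ucp1 in NIKhKO the other 4 libraries were listed at 0. The low mt-Atp6 value of NIKflox 4, 1233 FPKM, did not meet this ratio, because the other NIKflox libraries spread from 8281 to 11331.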

How the results depend on the processing

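The count of 0 called members held in all 22 alternatives, and no alternative turned the sign of either median. Leaving out 1 library gave medians from 0.09 to 0.14 for nuclear and from 0.12 to 0.32 for mitochondrial genes, and 94 to 103 of 119 log2 fold changes above 0. With the replicate number as a block, 0 members were called, the medians were 0.11 (nuclear) and 0.22 (mitochondrial), and 99 were above 0. Same-numbered libraries correlated at 0.01, -0.13, 0.02, -0.25 and 0.05 in their deviations from the group means. None correlated best with its own number. These correlations show no pairing by number, but they cannot tell whether samples shared litters or cages, which the labels do not give. At an unadjusted p below 0.05 stood 13 members in edgeR, where 4.85% of all genes tested were higher and 5.14% lower. Their number was 8 with limma (10.9% of all genes) and 6 without NIKflox 2 and 4 (8.23%).
Signs turned in 44 of the single-gene values, all in 8 genes with small or zero-laden differences. With limma at a pseudocount of 1 and of 0.1 mt-Nd3 stood at -0.0193 and -0.0193, Cox7a1 at -0.0494 and -0.0846, Cox7a2 at -0.0865 and -0.0877, and Atp5g2 at -0.0637 and -0.0646. Cox6b2 stood at 0.0409 with the pseudocount of 0.1. With total counts they were -0.0268 (mt-Nd3), -0.00236 (Cox7a1), -0.0570 (Cox7a2) and -0.0700 (Atp5g2). Without NIKflox 2 and 4 they were -0.0527 (mt-Nd3), 0.84 (Cox8b), 0.25 (Cox6b2) and -0.0228 (Atp5g2). With the replicate block they were 0.15 (Cox6b2), -0.0178 (Cox7a1), -0.0243 (Cox7a2) and -0.00105 (Atp5g2), and Atp5g2 stood at -0.000124 with counts divided by 4. With copies added mt-Nd3 stood at -0.00713. Leaving out 1 library gave -0.11 to 0.16 (mt-Nd3), -0.39 to 0.48 (Cox6b2), -0.22 to 0.26 (Cox7a1), -0.14 to 0.10 (Cox7a2), -0.16 to 0.0599 (Ndufa4), -0.0310 to 0.05002 (Atp5g2) and -0.20 to 0.34 (Atp6v0a1). The cause was not tested.
With 5 libraries a group and a median standard error of 0.11, differences of the size seen here did not pass adjustment over 12731 genes, and a p that misses the threshold does not show equal levels.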
